A study of Mus musculus with 16 samples.

Results

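The 47 genes described here act in mitosis: they encode mitotic cyclins, kinases, spindle checkpoint proteins, kinetochore and condensin subunits, spindle motors and the machinery of cytokinesis. They were taken by their symbols from a table of 31053 genes in which mRNA of a mouse muscle cell line had been counted. Each matched 1 row, and all 47 passed the filter on low values, which 10767 genes passed (a normalised count of at least 10 in at least 4 samples). The rule reads their symbols and no measured value, but the set was put together with earlier results of these data known.

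C2C12 is an established mouse myoblast line whose cells leave the cell cycle at confluency, fuse and become multinucleated myotubes. mRNA was measured in WT cells and in cells in which Fam134b had been knocked out (KO), each as myoblasts and as myotubes, with 4 samples per group and 16 in all. The question was how loss of FAM134B, an ER-phagy receptor, alters cells during myogenesis. The KO cells had been made with a lentiviral CRISPR-Cas9 vector that expressed guides against Fam134b and had been selected with antibiotics, and whether they were 1 clone was not stated. The SE and p-values of limma given below measure spread between samples of these cells, not between separately made knockouts. An effect of the knockout therefore cannot be told apart from other differences between the lines. Every culture was kept in DMEM with 10% FBS, and myotubes formed spontaneously when the cells became confluent. Genotype and stage were read from the sample titles, since a separate genotype field reads unknown for every sample. The labels give no day of collection and call the samples biological replicates.

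A cell enters mitosis when cyclin B bound to Cdk1 becomes active. The chromosomes are then condensed by condensin and topoisomerase, attached to spindle microtubules through kinetochores, and held until the spindle checkpoint releases the anaphase promoting complex, which destroys cyclin B and securin. The central spindle then directs cleavage of the cell. mRNAs of these genes accumulate in G2 and M phase, largely through a promoter element called CHR, and they are low in cells that have stopped dividing, such as the nuclei of muscle fibres.

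Reads assigned to genes numbered 2686680 to 3287461 in the samples of the first 3 groups and 1484750 to 2947336 in KO myotubes, of which replicates 2 and 4 were shallow (1790524 and 1484750). In those 2 samples, 3 reads were worth 4.38 and 5.99 normalised counts, against 2.49 to 3 in the other samples, and 3 members and 1 member were at 0. Fam134b itself lay between 146 and 287 normalised counts in WT samples and between 23.4 and 56.9 in KO samples. The summed level of 8 myotube markers was between 810.1 and 1469 normalised counts in WT myoblasts, between 16750 and 25540 in WT myotubes, 9.177 to 19.09 in KO myoblasts (Myog at 0 in all 4) and 8925 to 12240 in KO myotubes. The 4 myoblast markers summed to 767.7 to 1128, 1663 to 2003, 220.8 to 292.2 and 571.5 to 802.5 in the same order. Myod1, a myoblast factor, was at 5.81 to 15.7 normalised counts in KO myoblasts against 236 to 375 in WT myoblasts, and Des was at 101 to 170 against 438 to 674. Myf5 went the other way, at 107 to 118 against 59.8 to 82. Pax7 was at 0 in every KO sample and near the floor in WT, at most 2.77 in myoblasts and 4.95 in myotubes. Markers of adipocytes, osteoblasts, fibroblasts and macrophages (4 genes each) summed to at most 0.8634, 1.727, 19.79 and 24.2.

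2 further samples stood apart in the members. Over all genes tested, the root mean square deviation from group means (log2) was 0.44 in KO myoblasts replicate 2, and 0.26 to 0.312 in the rest of its group. WT myotubes replicate 2 was at 0.424, where the others of its group ran from 0.268 to 0.43. Every KO myotube sample deviated more than these, at 0.448 to 0.691, and WT myoblasts were at 0.261 to 0.326. The counts that follow were not made over all genes. KO myoblasts replicate 2 was above the other 3 samples of its group in 27 of 47 members and below them in 6, most for Cdc20 (3.06-fold over their mean on the log2 scale), Cdk1 (3.0-fold) and Plk1 (2.24-fold). WT myotubes replicate 2 was above its group in 29 members and below it in 4, most for Spc25 (2.35-fold), Aurka (2.30-fold) and Pttg1 (2.27-fold). For some of the members named here, differentiation changes that use these samples are also given without them.

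The promoters of these genes share short elements, and the stretches that hold them are shown for members to which the results return. The CHR was searched as TTTGAA or TTCGAA and the CCAAT box as CCAAT, on both strands, in RefSeq windows of 300 bases (GRCm38.p6, 250 bases before to 50 after the transcript start), which were found for 37 of the 47 members. On the other strand a CHR reads TTCAAA or TTCGAA and a CCAAT box ATTGG. In the 6 sequences that follow, each the 100 bases before the start on the gene's own strand, the capitals mark CHR and CCAAT matches. They are from chr10:69352913-69353012 (minus strand, Cdk1), chr4:118437344-118437443 (minus, Cdc20), chr2:164769829-164769928 (plus, Ube2c), chr15:102296193-102296292 (plus, Espl1), chr11:99024190-99024289 (minus, Top2a) and chr19:37376282-37376381 (plus, Kif11).
Cdk1: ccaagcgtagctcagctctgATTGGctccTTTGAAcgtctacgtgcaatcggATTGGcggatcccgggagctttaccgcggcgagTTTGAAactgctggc
Cdc20: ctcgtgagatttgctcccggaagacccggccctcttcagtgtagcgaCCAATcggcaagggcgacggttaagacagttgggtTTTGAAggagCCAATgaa
Ube2c: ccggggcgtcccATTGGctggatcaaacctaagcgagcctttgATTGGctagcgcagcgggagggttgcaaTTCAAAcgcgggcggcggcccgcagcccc
Espl1: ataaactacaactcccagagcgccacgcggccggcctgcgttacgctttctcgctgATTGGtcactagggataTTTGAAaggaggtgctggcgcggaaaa
Top2a: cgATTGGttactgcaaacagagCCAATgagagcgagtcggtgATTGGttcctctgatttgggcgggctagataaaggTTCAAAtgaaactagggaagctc
Kif11: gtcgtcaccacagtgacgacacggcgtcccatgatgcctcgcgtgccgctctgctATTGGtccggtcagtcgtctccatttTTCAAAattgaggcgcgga

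In other members a CHR lay at or after the start, and Ccnb2 and Smc2 held another before it, at -167 and -145. The stretches of 20 bases around the match at or after the start, with the CHR in capitals, are from chr9:70421538-70421557 (minus strand, Ccnb2), chr7:122159458-122159477 (plus, Plk1), chr2:172370526-172370545 (minus, Aurka), chr2:127831833-127831852 (minus, Bub1), chr1:189688072-189688091 (minus, Cenpf), chr17:71526816-71526835 (minus, Ndc80), chr4:52439240-52439259 (plus, Smc2), chr11:40733417-40733436 (minus, Hmmr) and chr15:99651639-99651658 (minus, Racgap1).
Ccnb2: cgcggtaTTTGAAtcgcgga
Plk1: cgccgcgTTTGAAttcgggg
Aurka: gagaaccTTTGAAttgtaac
Bub1: cggggaaTTCGAAtcgccgg
Cenpf: cgggcagTTTGAAtcgctcg
Ndc80: tttaaaaTTCAAAccgcctt
Smc2: gccgaaaTTCAAAggaacag
Hmmr: aggtaaaTTTGAAttcaggc
Racgap1: gcgtgatTTTGAAccggatc

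A CHR was present in 29 of the 37 members with a window (78.4%), against 19.2% of all 32851 promoter windows in the table. CCAAT was present in 28 (75.7% against 37.4%), and 26 members had both (70.3% against 7.52%). Among the CHR matches, TTTGAA occurred in 28 members and TTCGAA in 3, and 26 members had a match that began between 40 bases before and 50 bases after the start. The 8 members with a window but no CHR were Ccnb1, Birc5, Mad2l1, Pttg1, Cenpe, Nuf2, Ncaph and Nusap1. In the windows that held both motifs, the nearest matches of the 2 kinds lay a median of 26 bases apart. A spacing of 20 to 40 bases, chosen after the distances were seen, occurred in 15 members (40.5%) and in 1.7% of all windows. In Cdca8 the CHR and an ATTGG overlapped. The CHR share was 60% of 60 further mitotic genes with a window, 20.7% of 29 S phase genes and 14.3% of 14 anaphase promoting complex genes. It was 28.6% of 7 cohesin genes and 33.3% of 9 genes of MuvB and DREAM, complexes described below. A match is only a run of letters in the window, and binding was not measured.

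**Figure D1:**
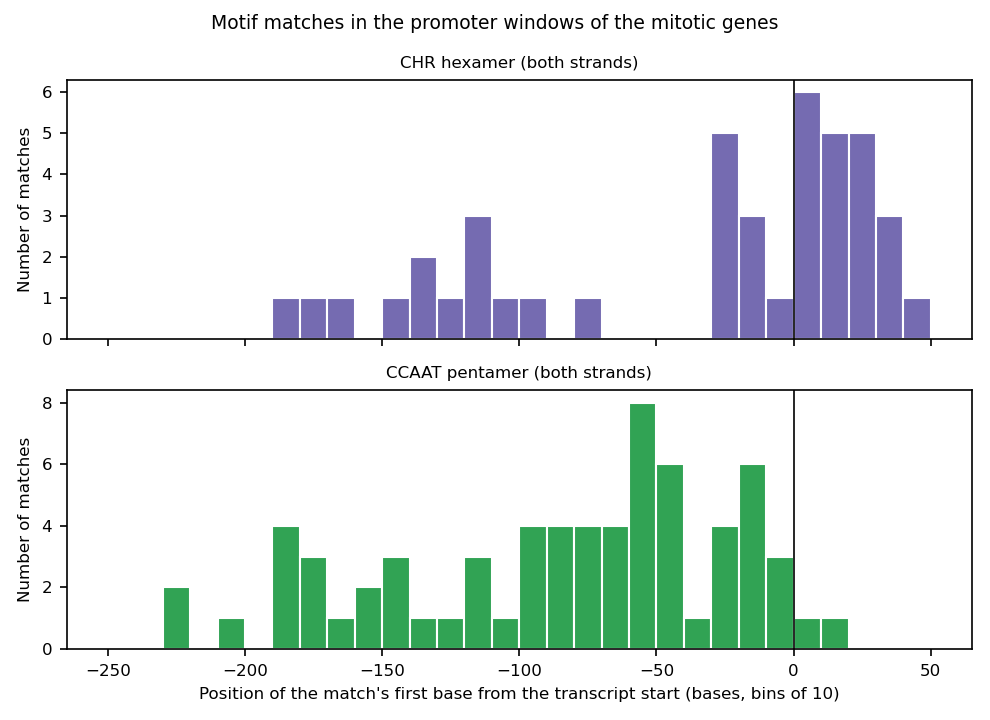
Positions of CHR (top) and CCAAT (bottom) matches in the promoter windows of 37 mitotic genes, counted from the transcript start in bins of 10 bases; bars give the number of matches. CHR matches gather around the start and CCAAT matches lie mostly before it.

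Most of these genes fell when WT cells differentiated and all of them fell when KO cells did, and most were lower in KO than in WT myotubes. Summed over the 47 genes, the normalised count lay between 15655 and 16934 in WT myoblasts and between 7780.6 and 12078 in WT myotubes, and was 13627 to 19943 in KO myoblasts and 3464.1 to 4866 in KO myotubes. The WT myotube mean was 54.3% of the WT myoblast mean, and the KO myotube mean was 28.5% of the KO myoblast mean. As a share of all reads, the members took 0.56% to 0.633%, 0.285% to 0.416%, 0.528% to 0.731% and 0.133% to 0.182% in the order WT myoblasts, WT myotubes, KO myoblasts, KO myotubes. The myotube groups overlapped with no myoblast sample, and all 4 KO myotube samples lay under all 4 WT myotube samples. These are bulk samples, so fewer dividing cells and less of these mRNAs per cell cannot be told apart.

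By limma across all 10767 genes, with adjusted p under 0.05, 34 of 47 members were called lower in WT myotubes than in WT myoblasts, where 9.16% of all genes tested were called lower, and 0 were called higher, where 13.8% were. In KO cells 47 of 47 were called lower in myotubes (16.1% of all genes lower, 17.3% higher). A log2 fold change here is a difference of group means of log2(normalised count + 1), given with its SE. The SE of each gene rests on a spread shared by all 4 groups. Wide spread among KO myotubes thus also enters the SE of WT comparisons. The added 1 shrinks changes at low counts, whereas samples at or near 0 can enlarge a fall. The median log2 fold change of the members was -0.95 in WT and -2.03 in KO, against -0.01 and -0.02 over all genes. In 34 members every WT myotube sample lay below every WT myoblast sample (12.0% of all genes), and in 47 every KO myotube sample lay below every KO myoblast sample (13.1%). The 13 members not called in WT (Anln, Bub1, Cdc25c, Espl1, Hmmr, Incenp, Kif23, Kif4, Mki67, Ncapd2, Ncaph, Ndc80 and Top2a) all had negative values, from -0.20 for Hmmr to -1.07 for Espl1. Leaving out the shallow KO myotube samples left 47 of 47 called in KO with a median of -1.88, leaving out KO myoblasts replicate 2 also left 47, and leaving out WT myotubes replicate 2 gave 37 called in WT, with Aurkb no longer among them (-0.67, adjusted p = 0.0706).

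**Figure D2:**
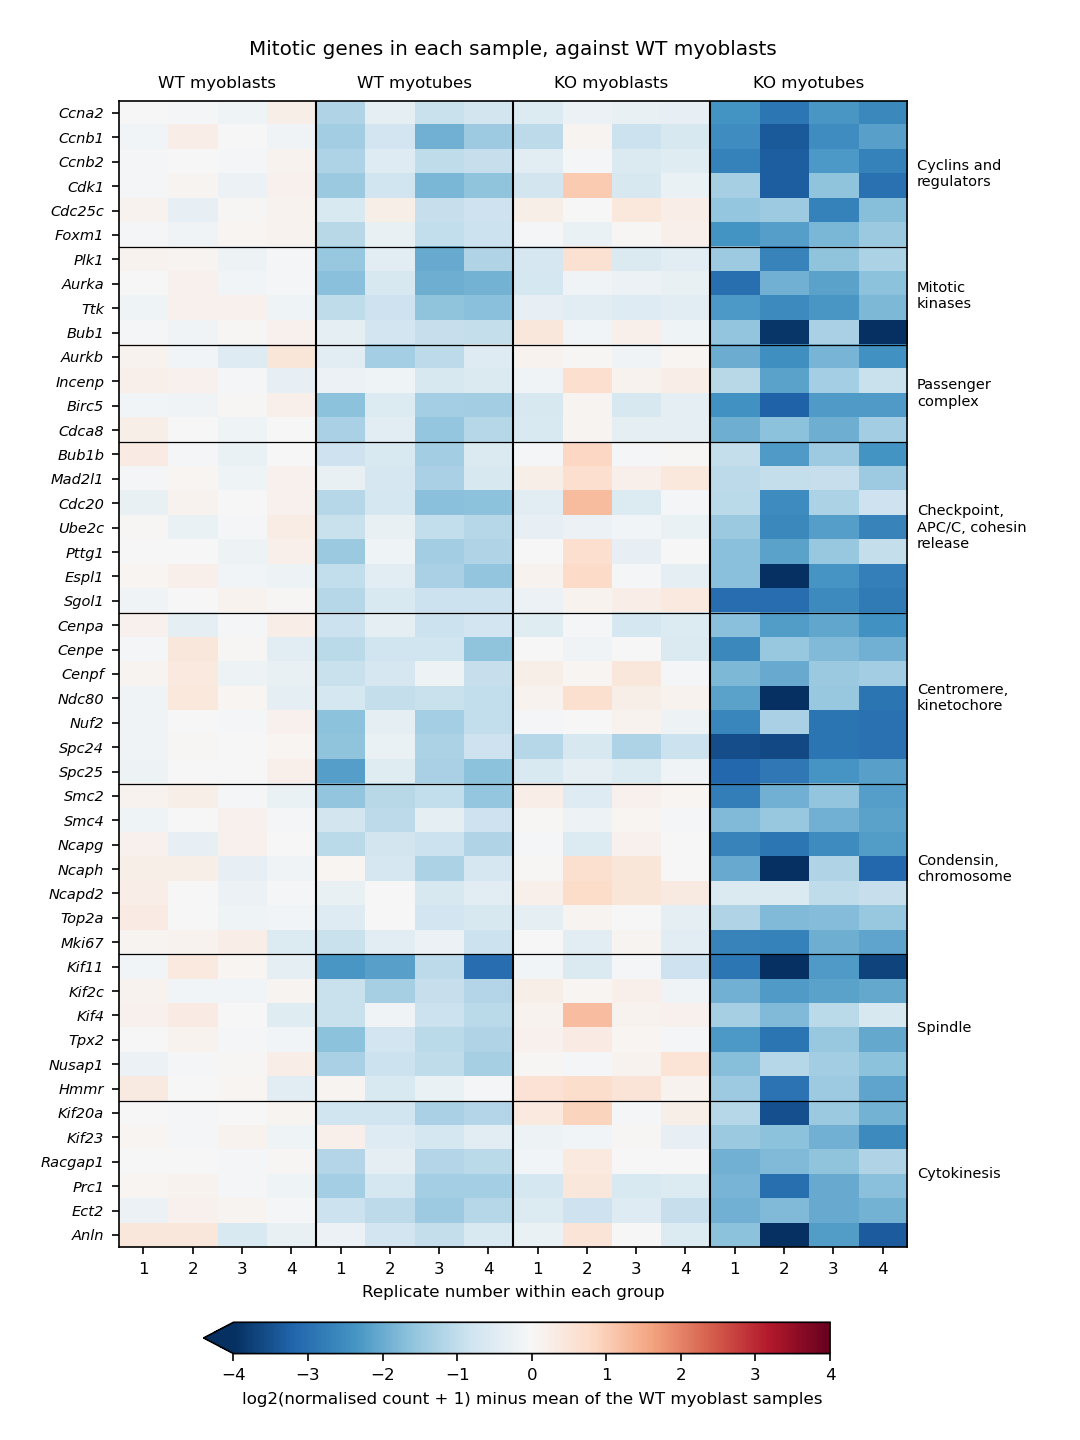
Each row is a mitotic gene, grouped by role, and each column a sample; colour gives log2(normalised count + 1) minus the mean of the 4 WT myoblast samples, blue lower and red higher, with values under -4 drawn in the darkest blue. Most genes are pale blue in WT myotubes and darker blue in all 4 KO myotube samples, and replicate 2 of KO myoblasts shows the strongest red.

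Of the 6 cyclins and Cdk1 regulators, 5 fell in WT myotubes and 6 in KO myotubes, with medians of -0.86 and -2.12. Cdk1, the kinase that drives entry into mitosis, was at 647, 728, 574 and 760.2 normalised counts in replicates 1 to 4 of WT myoblasts and at 238, 388, 190.5 and 219 in WT myotubes. In KO cells it was at 407, 1389, 431 and 561 in myoblasts and at 266, 67.1, 221 and 83.9 in myotubes. The myotubes lay below the myoblasts in both genotypes, replicate 2 of KO myoblasts stood far above the other 3, and the KO and WT myotube samples overlapped. Cdk1 fell, with log2 fold changes of -1.43 ± 0.38 in WT (adjusted p = 0.0105) and -2.16 ± 0.38 in KO (adjusted p = 0.000191). The KO value was -1.76 without replicate 2 of KO myoblasts (adjusted p = 0.000786) and -1.32 without the shallow KO myotube samples (0.0069).

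Ccna2, cyclin A2, which acts from S phase into early mitosis, was at 479, 474, 436 and 570.4 normalised counts in WT myoblasts and at 212, 379, 264 and 290.3 in WT myotubes. The KO samples were at 336, 418, 399.9 and 388 in myoblasts and at 92.9, 64.2, 95.4 and 79.9 in myotubes. All 4 KO myotube samples lay below all 4 WT myotube samples, and Ccna2 fell 1.74-fold in WT and 4.63-fold in KO (log2 -0.80 ± 0.18 and -2.21 ± 0.18). Ccnb2, a B-type cyclin that activates Cdk1, was at 383, 394, 369 and 429.6 in WT myoblasts, 168, 276, 196 and 209 in WT myotubes, 285, 379, 260.3 and 281 in KO myoblasts and 59.1, 39.4, 79.2 and 60.0 in KO myotubes. Its order of groups was the same as that of Ccna2, with folds of 1.88 and 5.10. Ccnb1, the main mitotic cyclin, fell (log2 fold change -1.38 ± 0.27 in WT and -2.03 ± 0.27 in KO), and its values are uncertain because 36.6% of 31-base stretches in its last 500 bases also occur in other genes. Foxm1, a factor that activates G2 and M phase genes, fell (log2 fold change -0.81 ± 0.20 in WT and -1.94 ± 0.20 in KO). Cdc25c, a phosphatase that activates Cdk1, had a log2 fold change of -0.54 ± 0.28 in WT (adjusted p = 0.168) and fell in KO (log2 fold change -2.09 ± 0.28).

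Among the 4 mitotic kinases, 3 fell in WT and 4 in KO (medians -1.29 and -1.83). Plk1, polo-like kinase 1, which drives centrosome maturation and mitotic entry, was at 607, 585, 472 and 525 normalised counts in WT myoblasts and at 189, 404, 134 and 235 in WT myotubes. It was at 344, 828, 367 and 398 in KO myoblasts and at 198, 84.6, 178 and 228 in KO myotubes. KO and WT myotubes overlapped, and the log2 fold changes were -1.3 ± 0.32 in WT (adjusted p = 0.00578) and -1.48 ± 0.32 in KO (adjusted p = 0.00123), the latter -1.19 without replicate 2 of KO myoblasts (0.00584). Aurka, Aurora A of the spindle poles, was at 148, 164, 135 and 141 in WT myoblasts, 44.9, 93.6, 37.2 and 38.6 in WT myotubes, 90.1, 134, 125 and 118 in KO myoblasts and 17.4, 37.9, 32.4 and 46 in KO myotubes. Its log2 fold change was -1.54 ± 0.29 in WT (adjusted p = 0.000551) and -1.84 ± 0.29 in KO (adjusted p = 4.38e-05), and replicate 2 of WT myotubes lay far above the other 3. Without that sample the WT value was -1.84 (adjusted p = 4.10e-05). Ttk, a checkpoint kinase also called Mps1, fell (log2 fold change -1.28 ± 0.23 in WT and -1.83 ± 0.23 in KO). Bub1, a kinetochore kinase of the checkpoint, was at 54.4, 51.1, 59 and 64.2 in WT myoblasts, 44, 33.3, 29.7 and 28.7 in WT myotubes, 78.7, 53.1, 65.1 and 50.9 in KO myoblasts and 18.4, 2.92, 22.5 and 0 in KO myotubes. The low values of Bub1 were in the shallow KO myotube samples, and its log2 fold change in KO went from -3.25 ± 0.62 to -1.54 without them (adjusted p = 0.000136).

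The chromosomal passenger complex corrects attachments at centromeres and moves to the central spindle in anaphase. Of its 4 subunits, 3 fell in WT and 4 in KO (medians -0.97 and -1.89). Birc5, or survivin, the subunit that recruits the complex to centromeres, was at 829.5, 812, 925 and 1039 normalised counts in WT myoblasts and at 288, 607, 348 and 341 in WT myotubes. It was at 569.6, 967, 569 and 702 in KO myoblasts and at 168, 94.8, 185 and 184 in KO myotubes, so that each KO myotube sample lay under each WT myotube sample. The log2 fold changes were -1.24 ± 0.24 in WT (adjusted p = 0.000723) and -2.16 ± 0.24 in KO (adjusted p = 4.74e-07). Cdca8, borealin, was at 542, 450.4, 406 and 452 in WT myoblasts, 187, 343, 155 and 206 in WT myotubes, 304, 491, 357 and 361 in KO myoblasts and 117, 146, 119 and 176 in KO myotubes, and fell (log2 fold change -1.11 ± 0.21 in WT and -1.43 ± 0.21 in KO). Aurkb, the kinase of the complex, fell (log2 fold change -0.84 ± 0.26 in WT and -2.21 ± 0.26 in KO). Incenp, its scaffold, had a log2 fold change of -0.42 ± 0.23 in WT (adjusted p = 0.207) and fell in KO (log2 fold change -1.62 ± 0.23).

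Of the 7 genes of the spindle checkpoint, the anaphase promoting complex and cohesin release, 6 fell in WT and 7 in KO (medians -0.87 and -1.95). Pttg1, securin, the inhibitor that holds separase until anaphase, had the highest normalised count of the set, unscaled for gene length, with 1351, 1377, 1198 and 1564 in WT myoblasts, 493, 1214, 522 and 590.5 in WT myotubes, 1339, 2160, 1098 and 1375 in KO myoblasts and 427, 311, 473 and 701 in KO myotubes. WT myotubes replicate 2 was 2.27-fold over the rest of its group, and the WT and KO myotube ranges overlapped. Pttg1 fell, with log2 fold changes of -1.06 ± 0.27 in WT (adjusted p = 0.00672) and -1.66 ± 0.27 in KO (adjusted p = 6.30e-05), and the WT value was -1.35 without that replicate (0.000295). Cdc20, the activator that binds the anaphase promoting complex when the checkpoint is met, was at 460.4, 623, 567 and 639.9 in WT myoblasts, 259, 349, 177 and 180.3 in WT myotubes, 417, 1374, 390.4 and 553 in KO myoblasts and 266, 97.8, 237 and 319.7 in KO myotubes. The myotube groups overlapped widely, and the log2 fold changes were -1.29 ± 0.35 in WT (adjusted p = 0.0115) and -1.49 ± 0.35 in KO (adjusted p = 0.00265), the latter -1.09 without replicate 2 of KO myoblasts (0.0106). Its counts are uncertain, since 27.5% of 31-base stretches in its last 500 bases are shared and an exon overlaps Elovl1 on the other strand.

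Sgol1, shugoshin, which protects cohesin at centromeres, was at 95, 102, 114 and 107 normalised counts in WT myoblasts and at 46.6, 68.4, 56.7 and 56.5 in WT myotubes. In KO it was at 89.2, 116, 126 and 138 in myoblasts and at 11.6, 11.7, 17.1 and 14 in myotubes. The KO myotube samples lay far below every other sample, at 11.6% of the KO myoblast mean, where WT myotubes were at 54.5% of theirs. Espl1, separase, the protease that cuts cohesin, was at 77.5, 83.9, 68 and 63.3 in WT myoblasts, 36.3, 54, 28.8 and 23.8 in WT myotubes, 80.5, 124, 68.5 and 55.1 in KO myoblasts and 22.3, 0, 13.5 and 9.99 in KO myotubes. Its log2 fold change in KO, -3.35 ± 0.61, included a 0 in a shallow sample and was -2.11 without both shallow samples. Ube2c, the ubiquitin carrier enzyme of the anaphase promoting complex, fell (log2 fold change -0.83 ± 0.22 in WT and -2.0 ± 0.22 in KO), and an exon of the muscle gene Tnnc2 overlaps it on the other strand. Bub1b and Mad2l1, which form the checkpoint inhibitor, fell, with log2 fold changes of -0.85 ± 0.29 and -0.73 ± 0.20 in WT and -1.95 ± 0.29 and -1.48 ± 0.20 in KO.

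Of the 7 centromere and kinetochore genes, 6 fell in WT and 7 in KO (medians -1.0 and -2.23). Spc25, Spc24, Nuf2 and Ndc80 encode the Ndc80 complex, which grips the microtubule. Spc25 was at 522, 614, 594 and 693 normalised counts in WT myoblasts and at 131, 432, 243 and 193 in WT myotubes, with replicate 2 the highest of the latter. It was at 397, 469, 416 and 545 in KO myoblasts and at 67.8, 81.7, 117 and 132 in KO myotubes, and it fell, with log2 fold changes of -1.41 ± 0.27 in WT (adjusted p = 0.000657) and -2.23 ± 0.27 in KO (adjusted p = 1.54e-06). The WT value was -1.71 without that replicate (adjusted p = 2.05e-05). Ndc80 was at 86.7, 131, 101 and 75.8 in WT myoblasts, 58.7, 49.5, 51.1 and 48.5 in WT myotubes, 106, 150.3, 114 and 108 in KO myoblasts and 21.3, 0, 33.3 and 12 in KO myotubes. Its log2 fold change in KO, -3.58 ± 0.65, was the most negative of the 47 and became -2.11 without the shallow samples, of which replicate 2 held no Ndc80 read. In WT the value was -0.89 ± 0.65 (adjusted p = 0.344), although no WT myotube sample reached a WT myoblast sample. That SE also includes the spread of the KO myotube samples. Nuf2 fell (log2 fold change -1.1 ± 0.30 in WT and -2.42 ± 0.30 in KO).

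Cenpf, a large protein of the outer kinetochore, was at 222, 270.0, 177 and 167 normalised counts in WT myoblasts, 111, 129, 178 and 108 in WT myotubes, 243, 217, 284 and 197 in KO myoblasts and 58.1, 49.6, 72 and 77.9 in KO myotubes. Its WT groups overlapped and its KO groups did not, and it fell (log2 fold change -0.67 ± 0.21 in WT and -1.86 ± 0.21 in KO). Cenpa, the histone H3 variant of centromeres, fell (log2 fold change -0.72 ± 0.19 in WT and -1.66 ± 0.19 in KO). Cenpe, a kinesin that aligns chromosomes, fell (log2 fold change -1.07 ± 0.25 in WT and -1.77 ± 0.25 in KO).

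Condensin and chromosome structure was the set with the lowest share of members called in WT, 3 of 7, and 7 of 7 fell in KO (medians -0.64 and -2.12). Top2a, topoisomerase II alpha, which untangles sister chromatids, had the highest normalised count of the set, unscaled for gene length, with 2331, 1845, 1640 and 1725 in WT myoblasts. It was at 1302, 1838, 1098 and 1198 in WT myotubes, which overlapped with the myoblasts through replicate 2, at 1423, 2028, 1889 and 1424 in KO myoblasts and at 804, 553, 562 and 647 in KO myotubes. Its log2 fold change in WT was -0.49 ± 0.19 (adjusted p = 0.0672), and it fell in KO (log2 fold change -1.39 ± 0.19, adjusted p = 7.98e-06). Without replicate 2 of WT myotubes the WT value was -0.64 (adjusted p = 0.0134). Mki67, the Ki-67 antigen that coats mitotic chromosomes, was at 323, 332, 359 and 205 in WT myoblasts and 159, 223, 255 and 164 in WT myotubes, which overlapped. It was at 302, 222, 320.1 and 222 in KO myoblasts and 45.5, 45.2, 75.6 and 67.9 in KO myotubes, with no overlap, and its log2 fold changes were -0.60 ± 0.22 (adjusted p = 0.0573) and -2.18 ± 0.22 (adjusted p = 1.86e-07).

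Smc2, the core condensin subunit, was at 224, 239, 195 and 169 normalised counts in WT myoblasts, 67.3, 95.4, 104 and 69.3 in WT myotubes, 249, 144, 233 and 214 in KO myoblasts and 29, 54, 67.5 and 44 in KO myotubes. It had the most negative log2 fold change of the condensin set in WT, -1.3 ± 0.24, and fell in KO (log2 fold change -2.12 ± 0.24). Smc4, its partner, was at 619, 705, 781 and 676 in WT myoblasts, 419, 332, 528 and 386 in WT myotubes, 713, 605, 725 and 649 in KO myoblasts and 201, 239, 183 and 156 in KO myotubes, and fell (log2 fold change -0.75 ± 0.16 in WT and -1.8 ± 0.16 in KO). Ncapg, a subunit of condensin I, was at 251, 176, 253 and 219 in WT myoblasts, 104, 133, 123 and 95.1 in WT myotubes, 215, 153, 249 and 219 in KO myoblasts and 33.9, 29.2, 37.8 and 46 in KO myotubes. Its KO myotube samples all lay under every WT myotube sample, and it fell (log2 fold change -0.97 ± 0.20 in WT and -2.47 ± 0.20 in KO). Ncapd2, another condensin I subunit, was at 317, 269, 223 and 256 in WT myoblasts, 217, 269, 170.1 and 194 in WT myotubes, 306, 438, 370.4 and 338 in KO myoblasts and 177, 175, 131 and 138 in KO myotubes, and had the smallest fall of the 47 in KO after Ect2 (log2 fold change -1.22 ± 0.18). Ncaph, the kleisin of condensin I, fell in KO (log2 fold change -2.92 ± 0.43, or -1.89 without the shallow samples), and its log2 fold change in WT was -0.64 ± 0.43 (adjusted p = 0.307).

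Spindle motors and assembly factors fell in 4 of 6 cases in WT and 6 of 6 in KO (medians -1.1 and -2.26). Kif11, or Eg5, the motor that pushes spindle poles apart, was at 60.0, 84.9, 68 and 49.9 normalised counts in WT myoblasts, 12.1, 13.5, 30.7 and 6.93 in WT myotubes, 59.5, 43.2, 62.5 and 35.9 in KO myoblasts and 7.75, 0, 12.6 and 4.00 in KO myotubes. It was the member with the most negative log2 fold change in WT, -2.15 ± 0.56 (adjusted p = 0.00864). In KO its log2 fold change was -3.34 ± 0.56 (adjusted p = 0.000102), or -2.20 without the shallow samples. Tpx2, which nucleates microtubules near chromosomes, was at 256, 286, 253 and 242 in WT myoblasts, 82.9, 152, 123 and 113 in WT myotubes, 294, 327, 272 and 247 in KO myoblasts and 52.3, 33.6, 89.1 and 61.9 in KO myotubes, and fell (log2 fold change -1.16 ± 0.23 in WT and -2.32 ± 0.23 in KO). Kif2c, a kinesin that depolymerises microtubules at centromeres, was at 103, 87.8, 87.1 and 102 in WT myoblasts, 50.1, 36.9, 49.3 and 41.6 in WT myotubes, 111, 100.4, 110.2 and 85.9 in KO myoblasts and 24.2, 19, 20.7 and 22 in KO myotubes. These groups overlapped only between the myoblasts, and Kif2c fell (log2 fold change -1.08 ± 0.19 in WT and -2.19 ± 0.19 in KO). Hmmr, a spindle protein that binds hyaluronan at the cell surface, was at 169.8, 131, 139 and 98.9 in WT myoblasts and 143, 86.4, 111 and 127 in WT myotubes, which overlapped. It was at 199.5, 214, 190.0 and 146 in KO myoblasts and 47.4, 16.1, 47.7 and 30.0 in KO myotubes, a log2 fold change of -2.48 ± 0.28 (adjusted p = 6.05e-07) against -0.20 ± 0.28 in WT (adjusted p = 0.641). Nusap1 fell (log2 fold change -1.12 ± 0.19 in WT and -1.64 ± 0.19 in KO), and Kif4, a chromokinesin, fell in KO (log2 fold change -1.63 ± 0.28) with a WT value of -0.74 ± 0.28 (adjusted p = 0.0643).

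**Figure D3:**
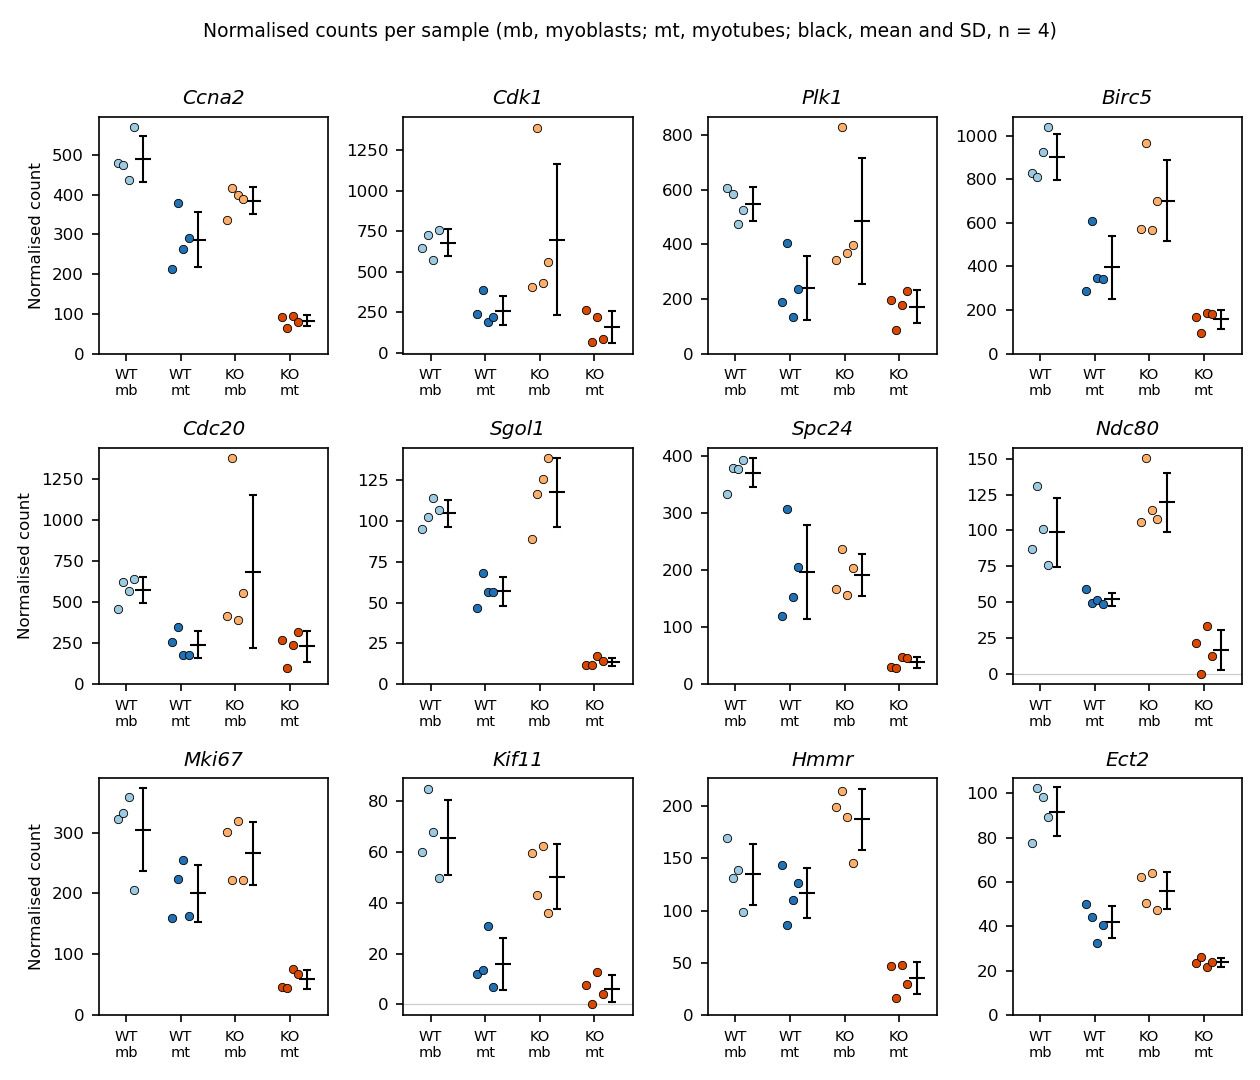
Normalised counts of 12 mitotic genes in every sample (4 dots per group), with the mean and SD of each group in black; mb, myoblasts and mt, myotubes. Sgol1, Hmmr, Mki67 and Ccna2 are lowest in KO myotubes with no overlap, whereas Cdk1, Plk1 and Cdc20 overlap between WT and KO myotubes and have 1 high KO myoblast sample.

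In the central spindle and cytokinesis set, 4 of 6 genes fell in WT and 6 of 6 in KO (medians -0.98 and -1.77). Racgap1, which with Kif23 forms the centralspindlin complex, was at 722, 739, 694 and 760.2 normalised counts in WT myoblasts, 321, 558, 319.7 and 346 in WT myotubes, 674, 945, 734 and 733 in KO myoblasts and 189.8, 214, 240.2 and 316 in KO myotubes. It fell, with log2 fold changes of -0.95 ± 0.19 in WT (adjusted p = 0.000909) and -1.69 ± 0.19 in KO (adjusted p = 5.34e-07), and the WT value was -1.15 without WT myotubes replicate 2 (6.39e-05). Prc1, which bundles the antiparallel microtubules of the midzone, was at 429, 451, 386 and 364 in WT myoblasts, 158, 248, 159 and 158 in WT myotubes, 249, 553, 265 and 279 in KO myoblasts and 111, 49.6, 99.9 and 126 in KO myotubes. Replicate 2 was the highest sample of both WT myotubes and KO myoblasts, and Prc1 fell (log2 fold change -1.19 ± 0.27 in WT and -1.79 ± 0.27 in KO, or -1.36 and -1.52 without those samples). Ect2, which activates RhoA at the cleavage site, was at 77.5, 102, 98.1 and 89.1 in WT myoblasts, 50.1, 44.1, 32.5 and 40.6 in WT myotubes, 62.1, 50.6, 64.2 and 47.5 in KO myoblasts and 23.2, 26.3, 21.6 and 24 in KO myotubes. It had the smallest fall of all 47 in KO, a log2 fold change of -1.2 ± 0.21 beside -1.12 ± 0.21 in WT.

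Kif23, the motor of centralspindlin, was at 203, 184, 208 and 168 normalised counts in WT myoblasts and 218, 133, 116 and 142 in WT myotubes, which overlapped (log2 fold change -0.36 ± 0.22, adjusted p = 0.251). It was at 164, 178, 196 and 151 in KO myoblasts and 67.8, 59.8, 49.5 and 32 in KO myotubes and fell (log2 fold change -1.75 ± 0.22). Anln, anillin, a scaffold of the contractile ring, was at 207, 206, 98.1 and 123 in WT myoblasts, 129, 88.2, 77.1 and 98.1 in WT myotubes, 124, 216, 152 and 102 in KO myoblasts and 47.4, 2.92, 31.5 and 14 in KO myotubes. The lowest samples were the shallow KO myotubes, and its log2 fold change in KO was -3.04 ± 0.50, or -1.86 without them. Kif20a, a motor that brings the passenger complex to the midzone, fell (log2 fold change -1.01 ± 0.34 in WT and -2.38 ± 0.34 in KO, or -1.69 in KO without the shallow samples), and its exons overlap Cdc23 on the other strand.

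Before differentiation few of these genes were called between the genotypes. Of 47 members, 2 were called lower in KO than in WT myoblasts (8.50% of all genes) and 0 higher (7.26%), with a median log2 fold change of -0.04. Values were negative in 25 members, and 25 and 24 were positive when the samples were rescaled to equal totals or by quantiles, so that no direction can be given for the set. Spc24, a subunit of the Ndc80 complex, was at 334, 379, 378 and 393 normalised counts in WT and 168, 237, 157 and 204 in KO myoblasts, with no overlap, a log2 fold change of -0.97 ± 0.24 (adjusted p = 0.00686). Ect2, with the values given above, was also lower without overlap (log2 fold change -0.70 ± 0.21, adjusted p = 0.0239). Ect2 was no longer called (adjusted p = 0.053 to 0.0823) without WT myoblasts replicate 2, 3 or 4 or without KO myoblasts replicate 2 or 4. In 5 members all KO myoblast samples lay below all WT myoblast samples (14.0% of all genes). With the 2 called members left aside, log2 fold changes ran from -0.60 ± 0.27 for Ccnb1 to 0.48 ± 0.28 for Hmmr (adjusted p = 0.152 and 0.274), and Ccnb1 was called without KO myoblasts replicate 2 (-0.84, adjusted p = 0.0347). Leaving out all samples numbered 2, an alternative chosen after the data were seen, gave 6 called, all lower. The KO myoblasts also had the low myotube and Myod1 levels given above, whose part in these values was not tested.

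After differentiation, 38 of 47 members were lower in KO than in WT myotubes (13.7% of all genes) and 0 higher (9.74%), with a median log2 fold change of -1.09 against -0.07 over all genes. In 28 members all 4 KO samples lay below all 4 WT samples (10.8% of all genes), and the KO myotube mean was the lowest of the 4 groups in all 47. By log2 fold change the called members ran from -2.48 ± 0.50 for Anln (adjusted p = 0.00109), -2.41 ± 0.62 for Bub1 (0.00747) and -2.4 ± 0.65 for Ndc80 (0.0101) to -0.78 ± 0.21 for Ect2 (0.0101), -0.67 ± 0.19 for Racgap1 (0.013) and -0.63 ± 0.21 for Cdca8 (0.0373). Without the shallow KO samples, Anln was at -1.29 (adjusted p = 0.00674), Ndc80 at -0.93 (0.0116) and Bub1 at -0.69 (0.0633). In that fit 33 of 47 members were called: Bub1, Bub1b (-0.35, adjusted p = 0.384), Espl1 (-0.93, 0.0501), Kif11 (-0.44, 0.482), Kif20a (-0.31, 0.391) and Prc1 (-0.74, 0.0506) lost the call, and Aurka gained it (-1.03, 0.0235). The 7 kinetochore genes, the 6 cytokinesis genes and the 4 passenger complex genes were all called with every sample fitted, whereas Aurka, Plk1, Cdk1, Kif4, Nusap1, Ncapd2, Cdc20, Mad2l1 and Pttg1 were not. Among these 9 the log2 fold change was -0.88 ± 0.38 for Cdk1 (adjusted p = 0.105) and -0.14 ± 0.35 for Cdc20 (adjusted p = 0.822). Without the shallow samples these were -0.04 (adjusted p = 0.954) and 0.12, so that the value for Cdc20 turned direction. Among the called members, Spc24 was at 120.0, 308, 152 and 206 normalised counts in WT myotubes and at 31, 29.2, 47.7 and 46 in KO myotubes, a log2 fold change of -2.27 ± 0.24, and Sgol1 at -2.0 ± 0.21 (adjusted p = 1.08e-06 and 1.01e-06). Leaving out WT myotubes replicate 2, the high sample, gave 34 called, and the fit to these 8 samples alone gave 27. Without WT myotubes replicate 2, Bub1b (adjusted p = 0.0598), Kif11 (0.0737), Kif20a (0.0861) and Cdca8 (log2 fold change -0.40, 0.142) lost the call. Cdca8 was also not called without WT myotubes replicate 4 (0.0682) or without KO myotubes replicate 1 (0.0923) or 3 (0.0914).

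**Figure D4:**
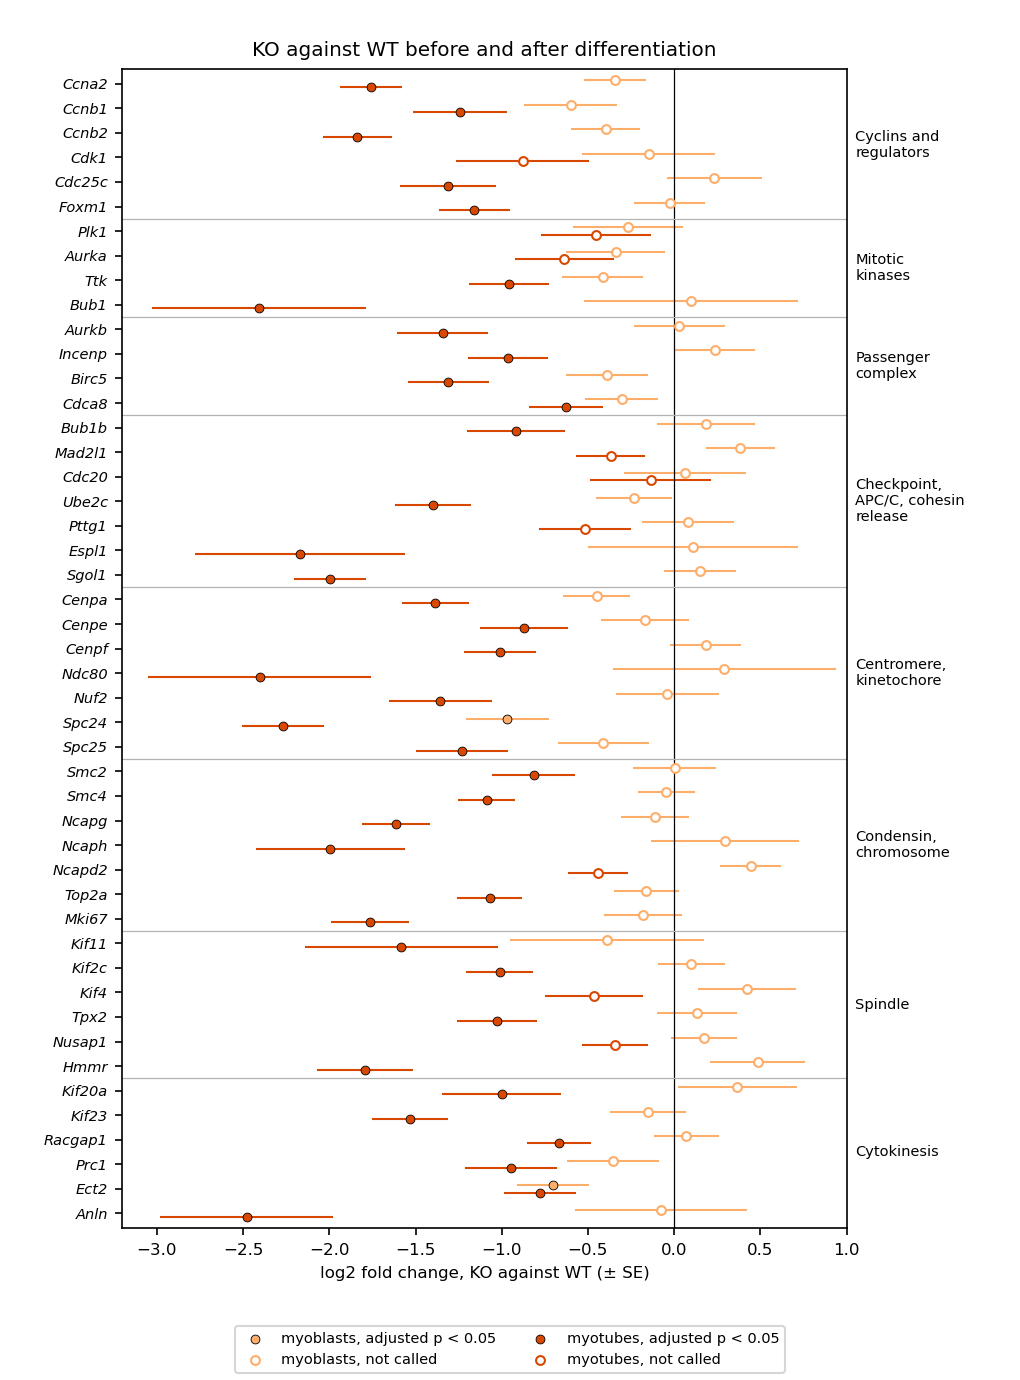
log2 fold change of KO against WT with its SE for each mitotic gene, in myoblasts (pale) and myotubes (dark); filled points have an adjusted p under 0.05. The 47 myotube values all lie below 0, and the myoblast values lie on both sides of it with 2 called, Spc24 and Ect2.

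The difference between the falls was tested as the genotype by differentiation interaction, which uses the same 16 samples as the comparisons above. In 17 of 47 members the fall was larger in KO cells than in WT cells (1.48% of all genes were called in this direction), and 0 were called in the other (1.97%). The estimate was negative in all 47 members, with a median of -1.11 against -0.04 over all genes, although 1 member became positive under quantile scaling, and Cdk1, Plk1 and Cdc20 did without the shallow KO myotube samples. Plk1 (0.11) and Cdc20 (0.21) also did without KO myoblasts replicate 2, and Plk1 (0.11) and Aurka (0.004) without WT myotubes replicate 2. The 10 with the smallest p were Sgol1 at -2.15 ± 0.30, Hmmr at -2.28 ± 0.39, Ccna2 at -1.42 ± 0.25, Ncapg at -1.5 ± 0.28, Ccnb2 at -1.44 ± 0.28, Mki67 at -1.58 ± 0.32, Smc4 at -1.04 ± 0.23, Kif23 at -1.38 ± 0.31, Cenpf at -1.19 ± 0.29 and Kif2c at -1.11 ± 0.27 on the log2 scale. Their adjusted p ran from 9.86e-05 for Sgol1 to 0.0258 for Kif2c. Cdc25c, Foxm1, Spc24, Ncaph, Ube2c, Aurkb and Incenp completed the 17, and 6 of the 17 were not called in WT differentiation. None of the 4 genes of the mitotic kinase set was among them, Aurkb being counted with the passenger complex. Plk1 was at -0.18 ± 0.45, Aurka at -0.30 ± 0.40, Ttk at -0.54 ± 0.33 and Bub1 at -2.5 ± 0.88 (adjusted p = 0.878, 0.759, 0.413 and 0.128), Bub1 being at -0.79 without the shallow samples (0.207). Ect2 had the smallest difference, -0.07 ± 0.30 (adjusted p = 0.933).

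The count of 17 depended on single samples, with 8 to 22 called when any 1 sample was left out. It was 8 without WT myoblasts replicate 3, 9 without WT myoblasts replicate 2 or KO myoblasts replicate 1 or 3, 10 without WT myoblasts replicate 1 or KO myoblasts replicate 4, 11 without WT myotubes replicate 2 and 13 without KO myoblasts replicate 2. Cenpf was not called (adjusted p = 0.059 to 0.0663) without WT myoblasts replicate 3 or 4, WT myotubes replicate 3, or KO myoblasts replicate 1 or 3, and Kif2c (0.0603 to 0.0704) without WT myoblasts replicate 2 or 3, WT myotubes replicate 3, or KO myoblasts replicate 1 or 3. Without the shallow KO myotube samples the count was 15, and the median was -0.89. In that fit Aurkb (adjusted p = 0.108), Ube2c (0.159), Spc24 (0.0557) and Ncaph (0.0938) lost the call, and Ndc80 (-1.22, 0.0377) and Nuf2 (-1.63, 0.00768) gained it. Across the 47 genes, which are not independent replicates, the WT and KO changes had a Pearson r of 0.13 and a Spearman rho of 0.0525. The KO myotubes also had the lower myotube markers given above, whose part in these differences was not tested.

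**Figure D5:**
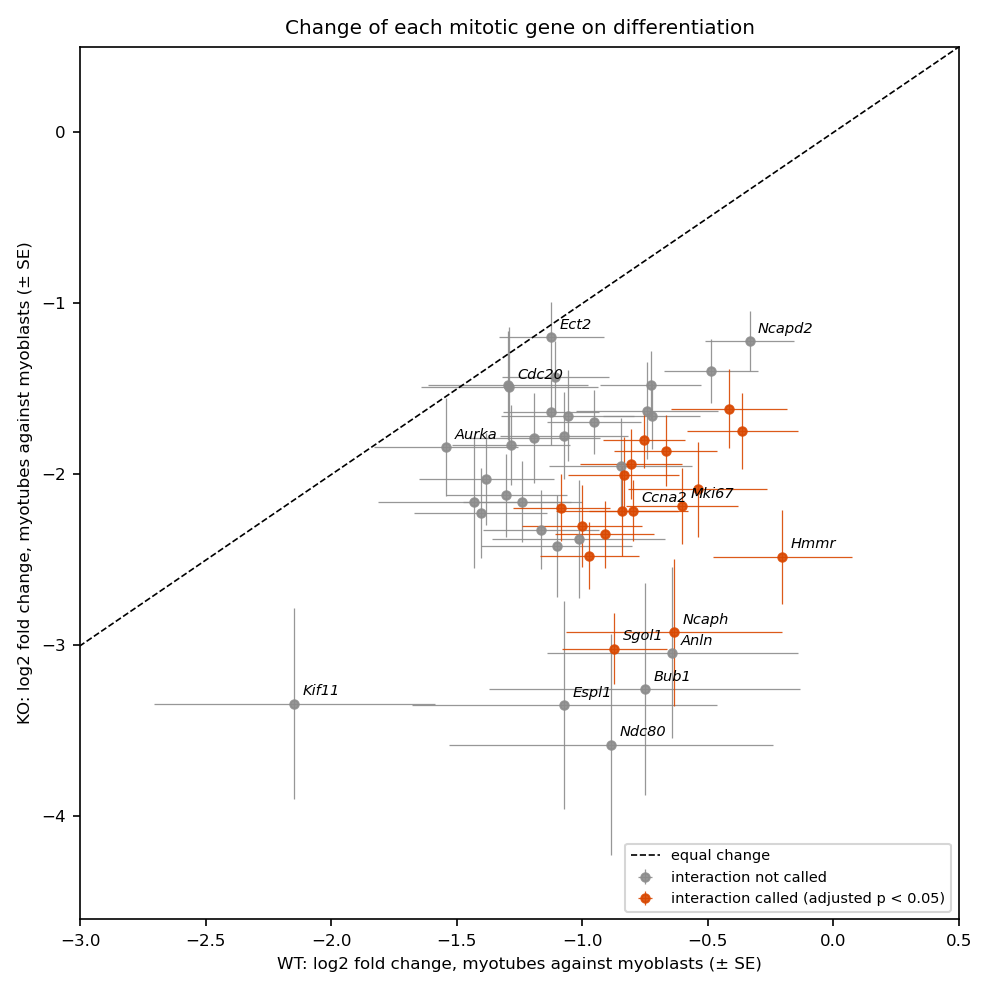
log2 fold change of each mitotic gene from myoblasts to myotubes in WT (x axis) and KO cells (y axis), with SE; orange points were called in the interaction and the dashed line marks equal change. All 47 points lie below the line, Ect2 nearest to it, and the 5 lowest points with long bars (Ndc80, Espl1, Kif11, Bub1 and Anln) each hold a KO myotube sample under 3 normalised counts.

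The change of members with and without a CHR is given as a description. In WT the median log2 fold change was -0.95 for the 29 members with a CHR, -1.09 for the 8 with a window and no CHR and -0.82 for the 10 without a window. In KO the medians were -1.95, -1.90 and -2.21. Cdk1, Cdc20, Top2a and Kif11, whose upstream sequences are printed above, hold both motifs within 100 bases of the start and ranged from -2.15 ± 0.56 for Kif11 to -0.49 ± 0.19 for Top2a in WT.

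The other genes of the pathway are given by list. Of 69 further mitotic genes tested, 38 were lower in WT myotubes and 60 in KO myotubes (medians -0.85 and -1.72), 1 lower and 1 higher in KO against WT myoblasts, and 44 lower and 1 higher in KO against WT myotubes (8.50% and 13.7% of all genes lower). Psrc1, a spindle protein, was the gene that was higher in KO at both stages, and Cks1b, a Cdk1 binding protein, was the lower one in myoblasts. Of 38 S phase genes, 27 fell in WT and 38 in KO (medians -0.97 and -1.75), and 3 and 22 were lower in KO against WT myoblasts and myotubes. Of 15 anaphase promoting complex genes, subunits and the activator Fzr1, which are needed outside mitosis too, 2 fell in WT (Anapc15 and Fzr1). In KO 4 fell, Fzr1 among them, and 1 rose (medians -0.17 in WT and -0.22 in KO). Cohesin had 0 of 12 lower in WT and 4 in KO, among them Esco2, which acts in S phase, with medians of -0.18 and -0.32. As shares these were 13.3% in WT and 26.7% in KO for the anaphase promoting complex and 0% and 33.3% for cohesin, beside 9.16% and 16.1% of all genes. Subunits of MuvB and DREAM, complexes that bind the CHR, though not through each subunit, had 3 and 4 of 12 lower (medians -0.43 and -0.30), Mybl2 in both. In the interaction 11 of the further mitotic genes, 5 S phase genes, 1 cohesin gene and 0 of the other sets were called, all with larger falls in KO (1.48% of all genes). These lists were chosen with results of the same data known.

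Some counts could include reads of other genes. Exons of 14 members overlap another annotated gene, mostly on the other strand (Ccna2 with Exosc9, Prc1 with Rccd1, Nusap1 with Oip5), and whether counting used the strand was not given in the sources used here. Foxm1 (with Tex52), Ncapd2 (with Scarna10) and Top2a (with Gm23451) overlap on the same strand, which counting by strand would not resolve. In 7 members over 10% of the 31-base stretches in the last 500 bases occur elsewhere: Ccnb1, Cdc20, Spc24 (11.4%), Plk1 (11.3%), Ndc80 (11.1%), Mki67 (11%) and Ube2c (10.9%).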

How the data were processed

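mRNA was measured in 16 C2C12 samples (4 groups of 4), grouped by their titles. Single-end reads had been trimmed and cleared of rRNA and phiX with bbduk, aligned with STAR 2.6.0a and counted on genes with HTSeq (mm10, per the submitters' processing notes). The normalization tool and the strand setting were not given in the sources used here. The deposited values are log2(normalised count + 1) per gene and sample, as made by the authors. Undoing the log gave whole multiples of 1 step per sample for 100% of values (tolerance 0.01 step), so reads per gene and depth (1484750 to 3287461) were recovered. Differences were fitted with limma 3.58.1 (R 4.3.3, trend) on log2(normalised count + 1), pseudocount 1, in all 16 samples with 4 group means. These share 1 estimate of the spread per gene. Genes with at least 10 normalised counts in at least 4 samples were tested (10767 of 31053), with Benjamini-Hochberg adjustment over all of them. The script was tested on simulated data.

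The members and the lists were chosen with earlier results of these data known. Values in every sample are given, by rule, for the member of each role with the highest mean normalised count and that with the most negative change in WT, the 3 largest changes either way among called members of each other comparison, and the 10 interaction members with the smallest p. Samples with the same number were not paired: their deviations from group means had a mean r of 0.033 (lowest -0.223, 10 of 24 pairs over 0.1), against -0.0108 for different numbers. Alternatives were other pseudocounts, filters, scalings and thresholds, voom on the recovered reads, sample weights, a replicate block and leaving out samples. Promoters were taken from RefSeq (GRCm38.p6) and exon overlaps from the GENCODE annotation of GRCm38. 74 rows without a symbol could hold no member.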

Additional observations from a re-analysis of the deposited data

Results flagged for a closer look

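1 sample lay far from the other 3 of its group in 11 of 188 combinations of a member and a group by Dixon's 95% critical value, which chance passes in about 1 of 20 groups. The share seen is near that rate, and members measured in the same sample are not independent. None were WT myoblasts, 4 were WT myotubes, 6 KO myoblasts and 1 KO myotubes. Of the members given with their values in every sample, replicate 2 of KO myoblasts was high for Cdk1 (1389 normalised counts, the others 406.8 to 560.6), Plk1 (828.5, the others 343.8 to 397.9), Cdc20 (1374, the others 390.4 to 553.1) and Prc1 (552.9, the others 249.4 to 278.6). Replicate 2 of WT myotubes was high for Aurka (93.56, the others 37.17 to 44.89), Pttg1 (1214, the others 493 to 590.5), Racgap1 (557.7, the others 319.7 to 345.8) and Prc1 (248.3, the others 157.5 to 158.9).

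By the same Dixon value, the summed level of the 47 members had a sample far from the rest in every group. That value scales a gap to the range of its group, which was narrow in WT myoblasts. It was low in WT myoblasts replicate 3 (15655, the others 16737 to 16934), high in WT myotubes replicate 2 (12078, the others 7780.6 to 8106), high in KO myoblasts replicate 2 (19943, the others 13627 to 14506) and low in KO myotubes replicate 2 (3464.1, the others 4633.3 to 4866), the last a shallow sample.

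The change on differentiation differed between WT and KO cells, by the interaction term in limma, for 17 members, each with the larger fall in KO. On the log2 scale the differences were -2.29 for Ncaph, -2.28 for Hmmr, -2.15 for Sgol1, -1.58 for Mki67, -1.55 for Cdc25c, -1.50 for Ncapg, -1.44 for Ccnb2, -1.42 for Ccna2, -1.38 for Kif23, -1.37 for Aurkb, -1.30 for Spc24, -1.20 for Incenp, -1.19 for Cenpf, -1.17 for Ube2c, -1.13 for Foxm1, -1.11 for Kif2c and -1.04 for Smc4. Without the shallow KO myotube samples, Ncaph was at -1.26 (adjusted p = 0.0938), Aurkb at -1.12 (0.108), Spc24 at -1.27 (0.0557) and Ube2c at -0.78 (0.159), so that these 4 were no longer called.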

How the results depend on the processing

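In KO cells all 47 members were called lower in myotubes under every alternative run. In WT 34 were called, with 30 to 37 when 1 sample was left out and 21 when the log2 fold change also had to reach 1 in size. In KO against WT myotubes 38 were called, with 34 to 37 when 1 sample was left out. In KO against WT myoblasts 2 were called, with 1 to 2 when 1 sample was left out, 5 (4 lower and 1 higher) with only those 8 samples fitted, 12 (10 lower and 2 higher) with sample weights, 6 without the samples numbered 2, 1 at an adjusted p under 0.01 and 0 with that minimum size. In the interaction 17 were called, with 8 to 22 when 1 sample was left out and 6 at an adjusted p under 0.01. With a replicate block the counts were 35, 47, 2, 38 and 16 for WT differentiation, KO differentiation, KO against WT myoblasts, KO against WT myotubes and the interaction, and the numbers were not taken to pair the samples. On the recovered reads voom gave 36, 47, 2, 35 and 17. For members given with full values, recomputed fold changes were tallied only in the comparisons by which each member was chosen. There 820 kept direction and call, 46 lost the call, 3 gained it and 0 turned direction. Outside that tally, Cdk1, Plk1, Cdc20 and Aurka turned direction in the interaction when samples were left out, and Cdc20 did in KO against WT myotubes. The cause of these changes was not tested, beyond the fewer samples or stricter threshold that some alternatives use. Depth limits the members with few reads: in KO myotubes replicates 2 and 4, 6 and 2 members had at most 3 reads.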
